A study of Homo sapiens with 12 samples.

Results

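The glutathione transferase genes were examined as a family of 10 genes: GSTP1, GSTO1, GSTO2, GSTZ1, MGST1, GSTA4, GSTM2, GSTM3, GSTM4 and GSTM5. Their members in the data are all CpGs measured inside the gene or within 1500 bp of either end, on the hg38 genome. These were 542 of the 3689712 CpGs with a 5-methylcytosine (5mC) level and 525 of the 3534314 with a 5-hydroxymethylcytosine (5hmC) level. All 525 were in both tables, and 17 of the CpGs lay in the spans of both GSTO1 and GSTO2. The cells were SV-HUC-1, an established human urothelial epithelial line immortalised with SV40, so the line models the bladder lining only as far as such a line does. The controls received a blank solution and the treated cells DCBQ, a chlorinated benzoquinone formed when drinking water is disinfected, and DNA was taken after 3 days. For each condition there were 3 reduced representation bisulfite (RRBS) libraries, which enrich CpG-rich DNA, and 3 oxidative RRBS libraries, which read 5mC without 5hmC. Each mark has a level for control 1 to 3 and for DCBQ 1 to 3. The labels do not say that these came from separate cultures, so a p-value here reflects only differences among the samples at hand, possibly technical ones.

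Glutathione transferases join the thiol of glutathione to reactive electrophiles, quinones among them, and so help cells clear oxidants and xenobiotics. The cytosolic enzymes fall into classes named by Greek letters, here pi (GSTP1), omega (GSTO1, GSTO2), zeta (GSTZ1), alpha (GSTA4) and mu (the GSTM genes), while MGST1 is a membrane-bound enzyme of a separate family. Methylation of CpGs around a transcription start is commonly found at silent genes, GSTP1 being a textbook case in prostate tumours, whereas the body of a transcribed gene is usually methylated. 5hmC is made from 5mC by TET enzymes. No expression was measured in the data used here, so levels of the marks are not readings of the genes' activity.

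Across all measured CpGs, the controls had a mean 5mC of 54.54% ± 0.15 (SD, n = 3) and the DCBQ samples one of 54.13% ± 0.10 (SD, n = 3), and the samples of the groups did not overlap. Mean 5hmC was 3.37% ± 0.06 (SD, n = 3) and 3.47% ± 0.14 (SD, n = 3), with overlap. Between samples, levels over all CpGs correlated at 0.968 to 0.972 for 5mC but only at 0.197 to 0.231 for 5hmC. The 5hmC level of a single CpG therefore repeated poorly from sample to sample, and values below for single CpGs or few CpGs carry that limit. The files give no read depth, so the counting error behind a level is unknown, and only a minimum of 5 reads per CpG is stated. Of 17 urothelial marker genes, 5 had a measured start window, with control 5mC from 2.2% to 79.1%, which is no reading of their expression.

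Promoter sequences of 5 genes are shown because their starts cover the range of methylation in the family, from near 0 to mostly methylated. Each is the 250 bases before the transcription start, 5′ to 3′ on the gene's strand, from RefSeq (GRCh38.p14), with each CpG that has a 5mC level in capitals. All 10 genes were matched in that reference. The spans are chr11:67583562-67583811 (plus strand) for GSTP1, chr10:104254642-104254891 (plus) for GSTO1, chr6:52995285-52995534 (minus) for GSTA4, chr1:109655849-109656098 (plus) for GSTM4 and chr1:109712001-109712250 (plus) for GSTM5.
GSTP1: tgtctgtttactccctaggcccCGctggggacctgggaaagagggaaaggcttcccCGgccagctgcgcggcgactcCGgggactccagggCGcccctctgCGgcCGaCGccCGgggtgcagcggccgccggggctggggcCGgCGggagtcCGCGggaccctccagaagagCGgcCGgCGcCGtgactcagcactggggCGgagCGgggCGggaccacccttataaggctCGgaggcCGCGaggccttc
GSTO1: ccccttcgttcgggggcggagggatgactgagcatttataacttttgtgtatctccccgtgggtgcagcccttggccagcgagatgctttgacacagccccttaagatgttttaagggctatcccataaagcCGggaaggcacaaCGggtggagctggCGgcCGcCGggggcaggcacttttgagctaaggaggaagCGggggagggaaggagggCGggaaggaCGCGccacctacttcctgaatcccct
GSTA4: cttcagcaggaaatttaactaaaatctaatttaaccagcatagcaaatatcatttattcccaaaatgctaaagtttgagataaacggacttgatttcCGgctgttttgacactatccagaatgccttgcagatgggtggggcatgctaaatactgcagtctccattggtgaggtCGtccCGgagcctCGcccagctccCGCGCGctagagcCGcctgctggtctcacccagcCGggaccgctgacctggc
GSTM4: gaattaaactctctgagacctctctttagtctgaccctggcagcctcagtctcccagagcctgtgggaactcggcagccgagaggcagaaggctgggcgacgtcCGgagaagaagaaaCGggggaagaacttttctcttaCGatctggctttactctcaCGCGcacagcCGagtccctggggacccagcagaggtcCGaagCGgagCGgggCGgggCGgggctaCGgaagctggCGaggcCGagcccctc
GSTM5: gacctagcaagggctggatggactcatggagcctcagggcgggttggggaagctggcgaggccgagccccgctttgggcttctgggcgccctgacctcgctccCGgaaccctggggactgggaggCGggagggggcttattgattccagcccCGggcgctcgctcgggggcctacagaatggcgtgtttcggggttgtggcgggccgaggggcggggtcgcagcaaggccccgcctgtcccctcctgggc
Of the CpGs in these sequences, 22 of 28 were measured for GSTP1, 9 of 14 for GSTO1, 9 of 11 for GSTA4, 14 of 18 for GSTM4 and 3 of 19 for GSTM5. The GSTP1, GSTO1 and GSTA4 sequences therefore show unmethylated CpGs in capitals, the GSTM4 sequence partly methylated ones and the GSTM5 sequence mostly methylated ones. The core of the antioxidant response element, searched as TGACNNNGC on both strands of the 300 bases from 250 bp before the start, was present in 4 of the 10 genes and in 14.3% of 15842 promoters of that length. It read TGACTCAGC from -66 in GSTP1, TGACCTGGC from -9 in GSTA4, TGACCTCGC from -159 in GSTM5, and TGACTGAGC from -226 and TGACACAGC from -161 in GSTO1. The GC box core GGGCGG, searched on both strands, was present in 8 of the 10 genes and in 58.5% of all promoters. These are matches of letters, not evidence of binding.

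The 5mC level around the transcription start divided the family. For each gene, the start window runs from 1500 bp before to 500 bp after the first start listed, and the value is the mean over its CpGs. In controls the window held little 5mC in GSTP1, GSTO1, GSTO2, GSTZ1 and MGST1, intermediate levels in GSTA4, GSTM3 and GSTM4, and a high level in GSTM5. GSTM2 had no measured CpG there. Over all 12202 genes with at least 5 CpGs in the window the median control level was 3.7%, and 7763 genes were under 10%.

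**Figure D1:**
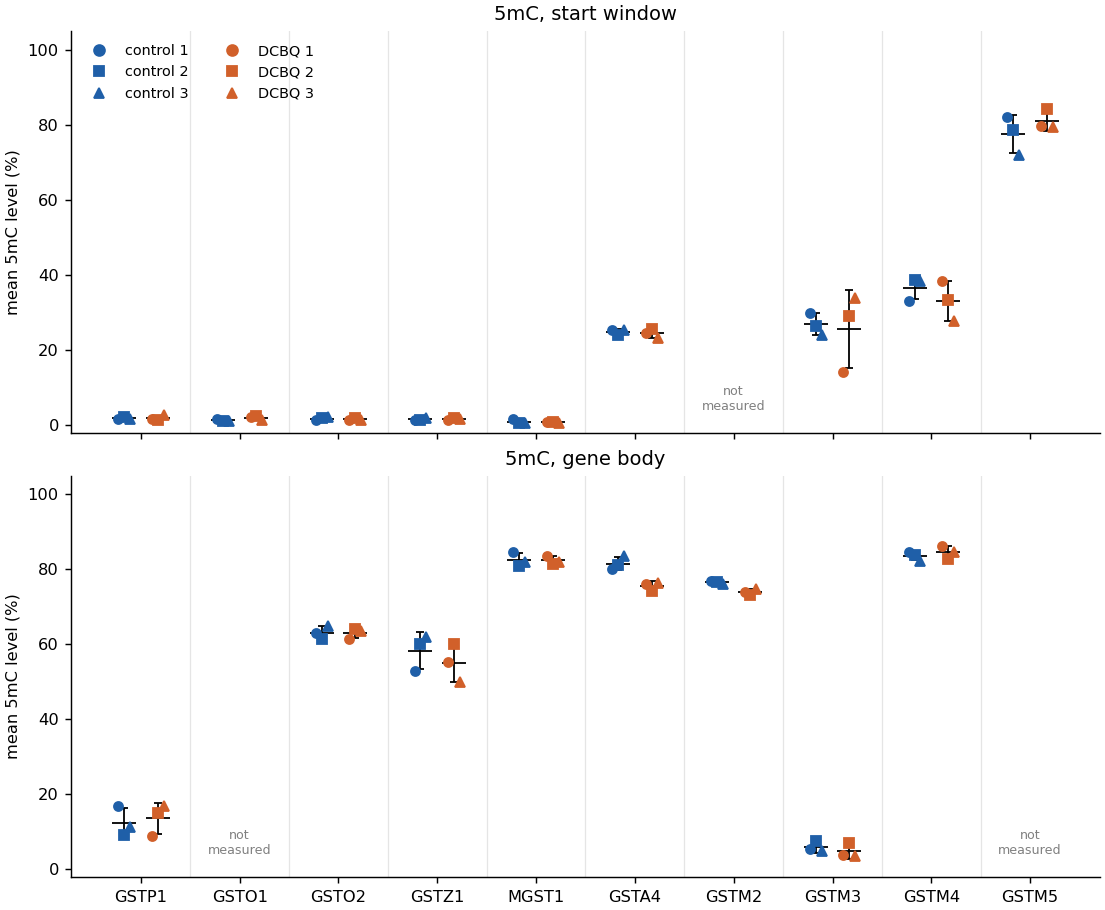
Mean 5mC level (%, y axis) of each gene's start window (top) and gene body (bottom) in controls (blue) and DCBQ samples (orange); points are samples, and black bars are the mean ± SD of 3. The start windows of GSTP1, GSTO1, GSTO2, GSTZ1 and MGST1 lie near 0 in all 6 samples, and the bodies of GSTA4 and GSTM2 are lower in all 3 DCBQ samples than in all 3 controls.

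GSTP1, the pi-class enzyme and the main glutathione transferase of many epithelia (chr11:67583812-67586653, plus strand), carried almost no 5mC at its start. Over 70 CpGs the controls were at 1.55%, 2.06% and 1.65%, and the DCBQ samples at 1.41%, 1.31% and 2.49%. The groups overlapped, and the difference of -0.01 percentage points (SE 0.36) had a limma adjusted p of 0.997. All 70 CpGs were under 10% in controls, the highest at 9.3%. The lower 5mC at +474 was 1 of the 3 CpGs with the smallest p: controls read 7.6%, 12.5% and 7.8% there, and DCBQ samples 1.3%, 3.2% and 3.2%. Its neighbour at +455 read 6.0%, 9.6% and 3.9% against 0.0%, 0.0% and 1.0%. The third, at -228, was at 0.0% in all controls and at 3.8%, 2.8% and 2.6% after DCBQ. At these 3 CpGs the groups did not overlap, but the adjusted p was 0.919, 0.927 and 0.928. In this window 3 CpGs stood apart with DCBQ lower and 2 with DCBQ higher. Together these were 8.06% of those tested, near the 8.02% of all CpGs tested in the genome. Further in, control 5mC stayed at 9.4% or less at the 10 CpGs from +503 to +661 and was uneven beyond them, at 30.9% at +669, 5.1% at +774 and 52.4% at +951.

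The omega-class genes, whose enzymes act as thiol transferases and dehydroascorbate reductases, lie side by side on chromosome 10. GSTO1 (chr10:104254173-104267455, plus strand) had 44 CpGs in its start window, at 1.58%, 1.08% and 1.07% in controls and 2.10%, 2.29% and 1.24% after DCBQ. The difference of +0.63 points (SE 0.32) had a limma p of 0.0918 and an adjusted p of 0.814, and DCBQ 3 lay within the control range. The CpG with the smallest p, at +115, read 5.0%, 10% and 0.0% against 12.5%, 19.0% and 8.3%, with overlap. GSTO2 (chr10:104269184-104304950, plus strand) had 38 CpGs at its start, at 1.16%, 1.79% and 1.97% in controls and 1.26%, 1.80% and 1.38% after DCBQ, again with overlap. Its CpG with the smallest p, at -320, read 2.0%, 9.1% and 5.7% against 0.0%, 3.3% and 0.0%.

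GSTZ1, the maleylacetoacetate isomerase of tyrosine breakdown (chr14:77321036-77331597, plus strand), was measured at 80 CpGs in the window. Of these, 48 lay outside POMT2, the protein-coding gene that overlaps its span with flanks. Over all 80, controls were at 1.28%, 1.23% and 1.77%, and DCBQ samples at 1.16%, 1.76% and 1.57%. The groups overlapped. At the 3 CpGs with the smallest p they did not: +88 was at 0.0% in all controls and at 3.6%, 2.5% and 3.1% after DCBQ, -155 at 2.2%, 2.2% and 1.0% against 0.0% in all, and -446 at 1.5%, 1.3% and 2.7% against 4.0%, 3.9% and 3.5%. Each had an adjusted p of 0.928. In the GSTZ1 window 2 CpGs stood apart with DCBQ lower and 3 with DCBQ higher. Together these were 7.46% of those tested, against 8.02% of all CpGs tested in the genome. MGST1, the microsomal enzyme that acts on lipid hydroperoxides (chr12:16347115-16593331, plus strand), had 8 CpGs, all between -16 and +22. They averaged 1.48%, 0.40% and 0.54% in controls and 0.86%, 0.74% and 0.44% after DCBQ. Its control level was at percentile 2.0 of all genes.

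GSTA4, the alpha-class enzyme that detoxifies the lipid peroxidation product hydroxynonenal (chr6:52977953-52995284, minus strand), had an intermediate mean that hid separate zones. Over 33 CpGs the window averaged 25.26%, 23.90% and 25.22% in controls and 24.49%, 25.43% and 23.12% after DCBQ. The 9 CpGs from -152 to -17 averaged only 2.27% ± 0.82 (SD, n = 3) in controls, and the 11 from +327 to +482 averaged 5.22% ± 1.44 (SD, n = 3). The 13 CpGs from -978 to -792 averaged 56.94% ± 0.40 (SD, n = 3), against 57.72% ± 3.10 (SD, n = 3) after DCBQ. Within those 13, control levels of 9.2% at -930 and 97.1% at -846 were found at nearby CpGs. The CpG with the smallest p, at -951, was higher after DCBQ at 40.0%, 38.7% and 17.4% against 28.6%, 10% and 5.6%, with overlap.

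The mu-class genes form a tandem cluster on chromosome 1, and their similar sequences mean that reads may have been split between copies, which was not tested. GSTM4 (chr1:109656099-109667727, plus strand) had 46 CpGs in the window, from -146 to +405. Controls were at 33.07%, 38.53% and 38.24%, and DCBQ samples at 38.33%, 33.22% and 27.62%. The difference of -3.56 points (SE 2.86) had an adjusted p of 0.888, and it was -0.84 without DCBQ 3, -6.20 without DCBQ 1 and -6.68 with the median over CpGs in place of the mean. In the 300 bases from 250 bp before the start of GSTM4, the 17 measured CpGs averaged 23.59%, 36.69% and 38.09% in controls and 30.50%, 20.41% and 12.97% after DCBQ. These are means of 32.79% ± 8.0 and 21.29% ± 8.80 (SD, n = 3), and control 1 lay among the DCBQ samples. Of the 7 genes with at least 5 CpGs in these 300 bases, GSTZ1 alone had groups apart, at 1.52%, 1.68% and 1.66% in controls and 1.27%, 1.29% and 1.5% after DCBQ, a difference of -0.26 points. Over all 9020 genes with such CpGs, 6.54% stood apart with DCBQ lower and 4.16% with DCBQ higher. The CpG at -132 read 36.4%, 56.5% and 46.9% in controls and 33.3%, 21.4% and 10.5% after DCBQ, a difference of -24.9 points (SE 7.9, limma p 0.0162, adjusted p 0.928). At +132 the levels were 20.5%, 26.9% and 25% against 12.5%, 12.5% and 9.6% (difference -12.6, SE 2.7, limma p 0.00216, adjusted p 0.887). At +188 the order was the opposite, with 9.6%, 11.1% and 18.4% against 25.9%, 22.4% and 23%. The groups did not overlap at any of these 3 CpGs. Of the 46 CpGs, 27 were lower and 19 higher after DCBQ, 3 and 1 without overlap. These 4 are 8.7% of the 46, near the 8.02% of all CpGs tested in the genome.

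GSTM5 (chr1:109711751-109718268, plus strand) had the highest start level of the family, at percentile 92.6 of all genes. Its 12 CpGs averaged 82.17%, 78.62% and 72.04% in controls and 79.62%, 84.20% and 79.38% after DCBQ, with overlap and an adjusted p of 0.883, and the difference of +3.46 points was +12.33 with medians. All 12 lay upstream of the transcription start used, at 109712251, from -851 to -98. That start lies inside the quoted span, and the 9 CpGs within 500 bp of it fall in the span too. Of its CpGs, the one at -296 had the smallest p, at 75%, 100% and 83.3% against 90.9%, 100% and 100%. GSTM3 (chr1:109733937-109741038, minus strand) had 11 CpGs in the window, all between +318 and +482. They averaged 29.84%, 26.48% and 23.97% in controls and 14.00%, 29.01% and 33.95% after DCBQ, so DCBQ 1 lay below and DCBQ 3 above every control. Its promoter held only 1 CpG in 300 bases, and that CpG was not measured.

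In the order of control start levels, MGST1, GSTO1, GSTZ1, GSTO2 and GSTP1 lay between 0.80% and 1.75% and neighbours did not differ beyond the spread of their samples. GSTA4 at 24.79% and GSTM3 at 26.76% also overlapped, while GSTM4 at 36.62% and GSTM5 at 77.61% stood apart from their neighbours. Over the 9 measured start windows, 6 differences were below 0 and 3 above, with a median of -0.12 points against -0.09 over all genes, where 59.2% were below 0 and 40.8% above. In no start window of the family did the groups stand apart, while over all 12202 genes they did so with DCBQ lower in 8.18% and DCBQ higher in 3.82%. With limma, 0 of the 9 passed an adjusted p of 0.05 and 0 had an unadjusted p under 0.05. Among all genes 0% passed after adjustment and 6.68% had an unadjusted p under 0.05.

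**Figure D2:**
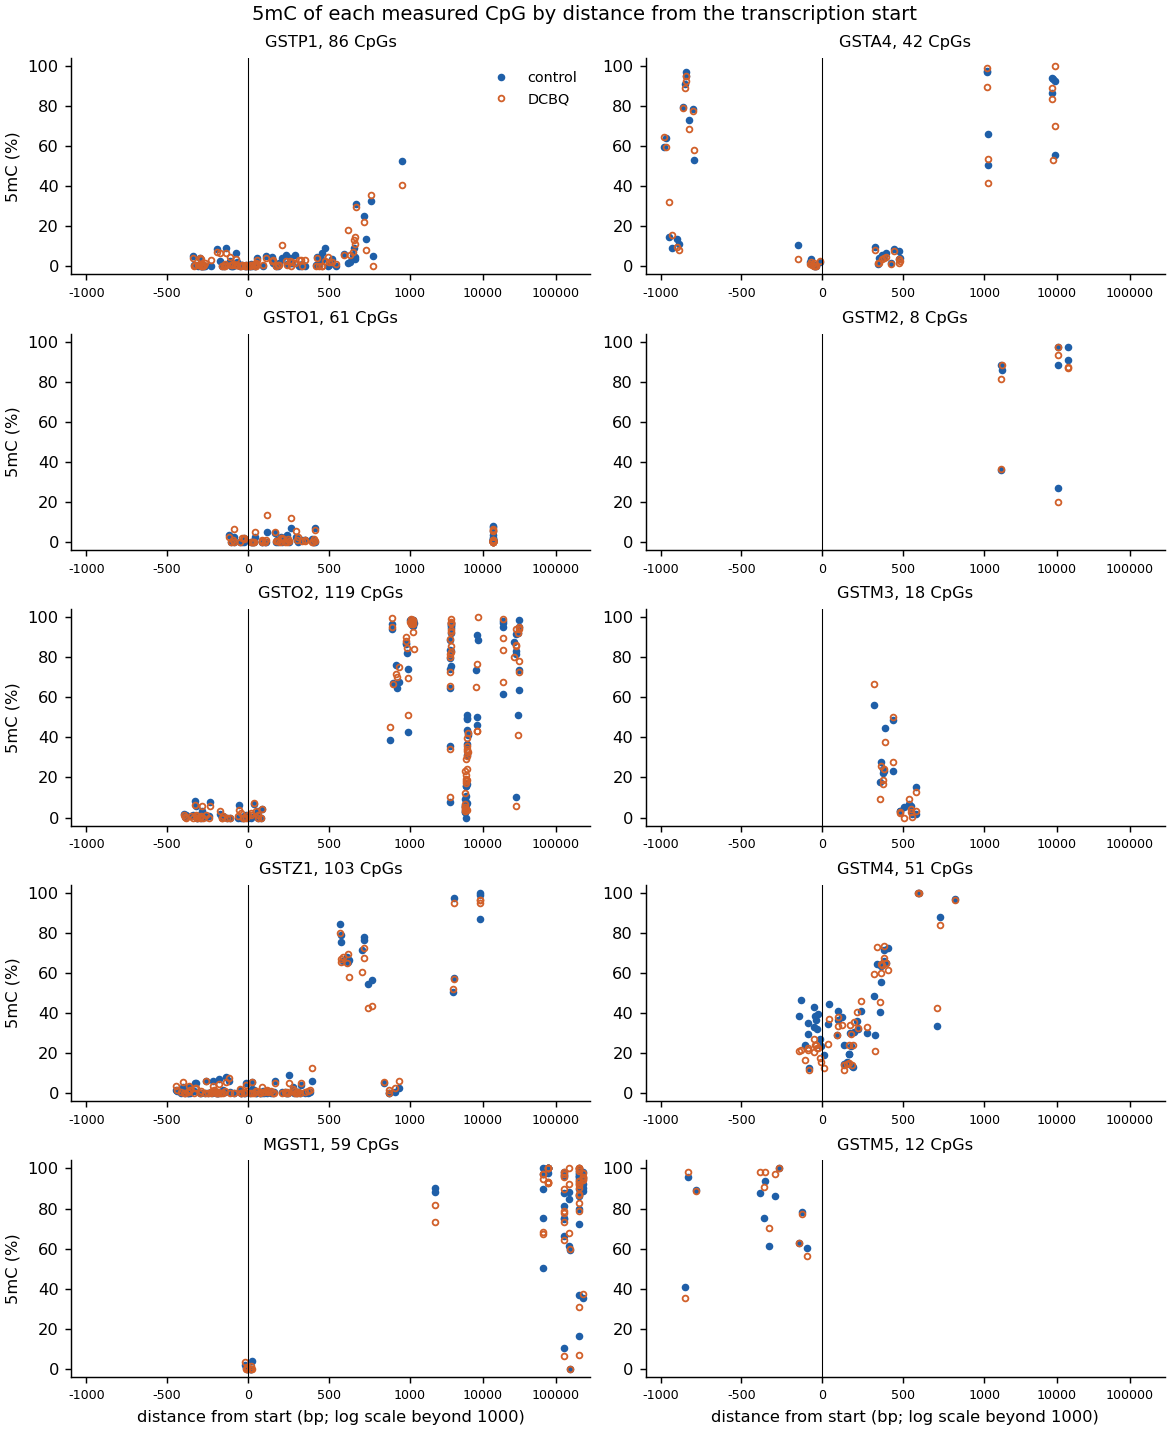
Mean 5mC (%, y axis) of each measured CpG against its distance from the transcription start (bp, linear near the start and on a log scale farther out), for controls (filled blue, n = 3) and DCBQ samples (open orange, n = 3). CpGs near the start sit close to 0 in GSTP1, GSTO1, GSTO2, GSTZ1, MGST1 and GSTA4, while GSTM4 has intermediate levels on both sides of the start, from 12.7% at -81 to 72.5% at +405 in controls.

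In GSTZ1 and GSTO2 the low zone at the start was followed by methylated CpGs. No CpG was measured between +392 and +569 in GSTZ1 or between +84 and +877 in GSTO2, so how sharp these edges were is unknown. In GSTZ1, control 5mC was 0.4% at +385, 5.9% at +392 and 84.7% at +569. It stayed between 54.3% and 78.0% from +707 to +763, and was 5.1% or less from +841 to +931. In GSTO2, the 23 CpGs from +877 to +1124 averaged 84.84% ± 1.61 and the 15 from +3522 to +3723 averaged 77.74% ± 1.05 (SD, n = 3). Another low zone lay deeper in the gene: the 12 CpGs from +5704 to +5860 averaged 6.33% ± 4.88 in controls. Another transcription start of GSTO2 is listed at chr10:104275166-104275166, or +5982, just beyond that zone. The next 11 CpGs, from +5975 to +6204, averaged 34.92% ± 6.30 (SD, n = 3).

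These zones of GSTO2 differed in opposite directions between the groups. From +5704 to +5860 the controls were at 5.50%, 1.93% and 11.57% and the DCBQ samples at 12.25%, 15.45% and 9.28%, a difference of +5.99 points (SE 2.60, limma p 0.0564, adjusted p 0.813). From +5975 to +6204 they were at 37.41%, 27.75% and 39.59% against 26.15%, 28.15% and 31.97%, a difference of -6.15 (SE 3.31, limma p 0.107, adjusted p 0.842). The groups overlapped in each zone. At the CpG at +6122 they did not, with 57.8%, 45.5% and 45.6% against 28.3%, 34.0% and 30.5% (difference -18.7, SE 5.9, adjusted p 0.928). At +5860 they also stood apart, in the other direction, at 20.8%, 4.7% and 21.2% against 29.4%, 24.2% and 33.3%. Of the 81 CpGs of the GSTO2 body, 4 stood apart with DCBQ lower and 3 with DCBQ higher. Together these were 8.64%, near the 8.02% of all CpGs tested in the genome.

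The gene body runs from the end of the start window to the far end of the gene. In controls it was highly methylated in GSTM4, MGST1, GSTA4 and GSTM2, less so in GSTO2 and GSTZ1, and low in GSTP1 and GSTM3, the last 2 being measured only near the start. GSTM5 and GSTO1 had no CpG there. The median control level over 13137 gene bodies was 73.2%. GSTA4 and GSTM2 were the bodies in which all DCBQ samples read lower 5mC than all controls, and neither passed the adjusted threshold.

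For GSTA4 the 9 body CpGs averaged 80.02%, 81.10% and 83.47% in controls and 75.98%, 74.21% and 76.47% after DCBQ. The means were 81.53% ± 1.76 and 75.55% ± 1.19 (SD, n = 3), a difference of -5.98 points (SE 1.08, limma p 0.00149, adjusted p 0.419). Most of it came from the CpG at +8688 (chr6:52986596-52986596), which read 91.7%, 89.5% and 100% in controls and 61.5%, 31.2% and 66.7% after DCBQ. That difference was -40.6 points (SE 9.6, limma p 0.00402, adjusted p 0.906). Without it the remaining 8 CpGs averaged 78.56%, 80.05% and 81.40% in controls and 77.79%, 79.59% and 77.69% after DCBQ, a difference of -1.65 points with overlap. The CpG at +9377 was higher after DCBQ, at 70.8%, 63.8% and 76.2% against 59.4%, 61.0% and 46.2%.

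For GSTM2 (chr1:109668057-109683997, plus strand) the 8 body CpGs averaged 76.81%, 76.67% and 76.00% in controls and 73.97%, 73.06% and 74.64% after DCBQ. The difference was -2.60 points (SE 0.58, limma p 0.00436, adjusted p 0.479). At none of its 8 CpGs alone did the groups stand apart, and 5 were lower and 3 higher. The most negative difference, -10.7 points at +14294, came from 100%, 100% and 92.3% against 72.7%, 87.5% and 100%. The samples within each group were close, with an SD of 0.43 in controls and 0.79 after DCBQ. With medians over CpGs the difference was -4.42 points (adjusted p 0.738).

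Elsewhere in the bodies the groups overlapped. MGST1, over 51 CpGs, averaged 84.52%, 80.98% and 81.85% in controls and 83.63%, 81.53% and 81.99% after DCBQ, and GSTM4, over 5 CpGs, 84.54%, 83.94% and 82.34% against 86.22%, 82.68% and 84.58%. GSTO2, over 81 CpGs, was at 63.05%, 61.34% and 64.82% against 61.38%, 64.01% and 63.52%. GSTZ1 was the most variable of the methylated bodies, at 52.86%, 60.17% and 61.95% against 55.26%, 60.08% and 49.88%. GSTP1, over 16 CpGs, read 16.82%, 9.09% and 11.24% against 8.89%, 15.03% and 16.80%. Its CpG at +617 was at 5.3%, 0.0% and 0.0% in controls and 7.7%, 25% and 22.2% after DCBQ (difference +16.5, SE 4.5, limma p 0.0081, adjusted p 0.928). GSTM3, over 7 CpGs, was at 5.23%, 7.61% and 4.74% against 3.69%, 6.94% and 3.54%.

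Over the 8 bodies, 6 differences were below 0 and 2 above, with a median of -0.62 points against -0.39 over all genes, where 69.4% were below 0 and 30.6% above. The 2 bodies whose groups stood apart with DCBQ lower compare with 13.4% of all gene bodies, and none stood apart with DCBQ higher, as did 2.24% of all. The 2 with an unadjusted limma p under 0.05 compare with 8.32% of all bodies. No body of the family passed the adjusted threshold, and over all 13137 bodies 0% did.

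**Figure D3:**
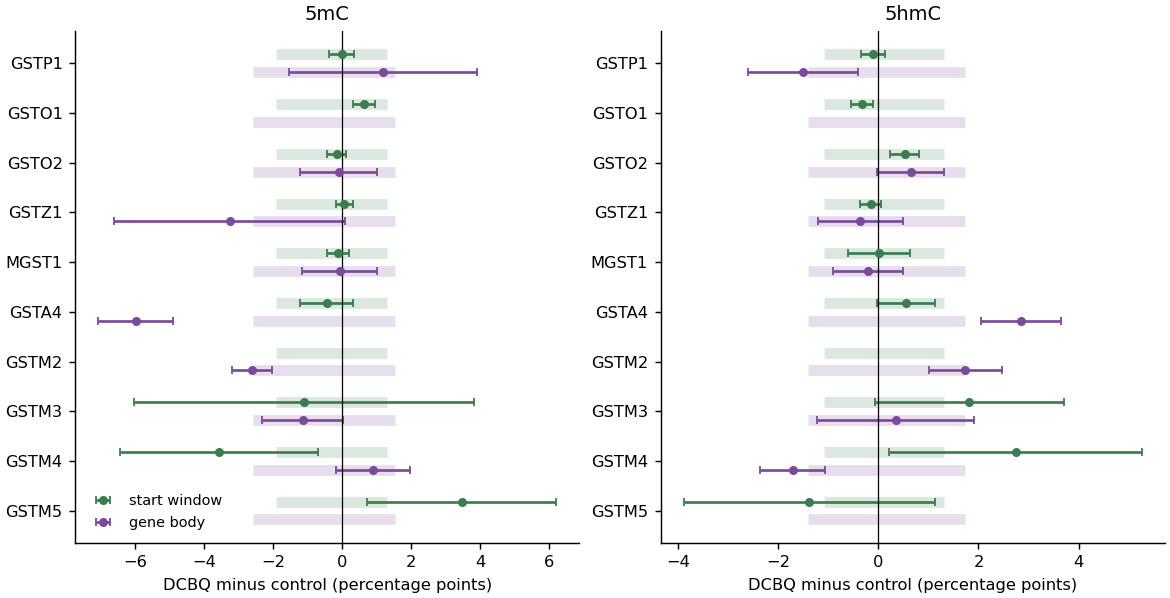
DCBQ minus control (percentage points, x axis; dot with limma SE) for 5mC (left) and 5hmC (right), in start windows (green) and gene bodies (purple) of each gene. Pale bars span the 5th to 95th percentile of the difference over all genes. For both marks the GSTA4 body and the GSTM4 and GSTM5 start windows lie outside them. So does the GSTM2 body, by 0.02 points or less. In these units 5mC is below 0 and 5hmC above 0, except in GSTM5, where the signs are the opposite. For 5mC alone the GSTZ1 body also lies below its bar. For 5hmC alone the GSTM3 start window lies above its bar and the bodies of GSTP1 and GSTM4 lie below theirs.

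5hmC was low throughout the family. In start windows, control levels were 0.59% in GSTO2, 0.85% in GSTZ1, 0.96% in GSTO1, 0.97% in GSTP1, 2.01% in MGST1, 2.15% in GSTA4 and 3.99% in GSTM3. GSTM4 at 6.77% ± 1.96 and GSTM5 at 7.19% ± 4.03 (SD, n = 3) stood at percentiles 97.7 and 98.2 of all genes. 5hmC varies with 5mC across genes, so these were set beside genes of like 5mC. Start windows with 25% to 50% 5mC in controls, the range of GSTM4, had a median 5hmC of 3.26% (quartiles 1.96% and 5.14%, 980 genes). Those with 75% to 90%, the range of GSTM5, had a median of 3.70% (quartiles 2.9% and 4.54%, 817 genes). By the mean of the 3 controls, GSTM4 and GSTM5 were above the upper quartile of their ranges. Control 2 alone was below that quartile in GSTM4, at 4.92%, and below the median of the range in GSTM5, at 3.52%.

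The DCBQ samples did not stand apart in 5hmC at any start. GSTM4 read 8.83%, 4.92% and 6.56% in controls and 5.43%, 11.94% and 11.13% after DCBQ, a difference of +2.74 points (SE 2.52, adjusted p 0.969), and it was +1.51 without DCBQ 2 and +4.77 without DCBQ 1. GSTM5 read 6.56%, 3.52% and 11.51% against 5.13%, 2.88% and 9.43%, and control 3 was the highest of the 6. GSTM3 read 2.14%, 6.81% and 3.03% against 8.74%, 6.48% and 2.23%. GSTO2 read 0.77%, 0.35% and 0.67% against 0.52%, 1.24% and 1.61%, with the smallest limma p of the starts at 0.105 (adjusted p 0.952). The other starts differed by at most 0.55 points. Of the 9 differences, 4 were below 0 and 5 above, against 46.5% and 53.4% of all genes. Over all genes the groups stood apart at 9.72% of start windows, 4.81% had an unadjusted p under 0.05, as did none of these 9, and 0% passed the adjusted threshold.

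**Figure D4:**
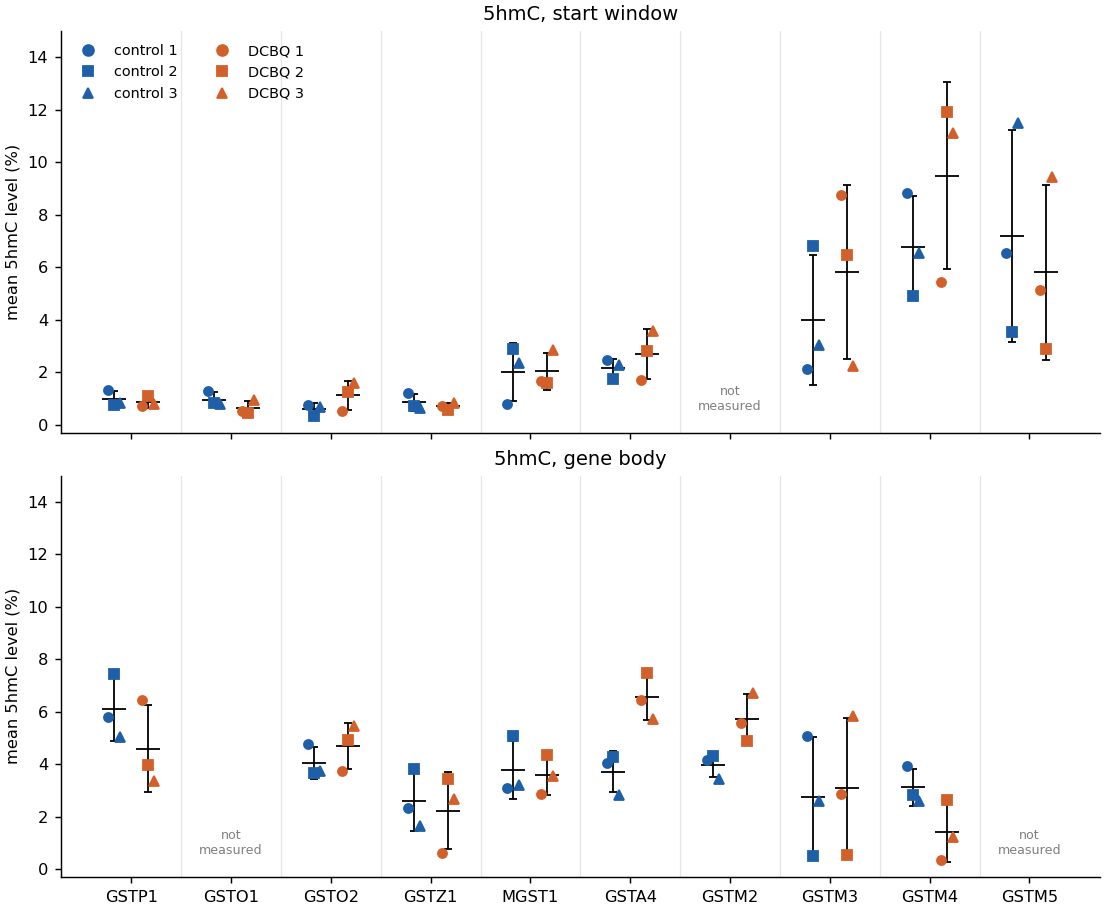
Mean 5hmC level (%, y axis) of each gene's start window (top) and gene body (bottom) in controls (blue) and DCBQ samples (orange); points are samples, and black bars are the mean ± SD of 3. The bodies of GSTA4 and GSTM2 are higher in all 3 DCBQ samples than in all 3 controls, while GSTM4 and GSTM5 have the highest start windows and wide spreads.

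In gene bodies, 5hmC was higher in all DCBQ samples than in all controls for GSTA4 and GSTM2, the same bodies that read lower 5mC. GSTA4, over 8 CpGs, read 4.03%, 4.29% and 2.81% in controls and 6.44%, 7.49% and 5.74% after DCBQ, a difference of +2.85 points (SE 0.79, limma p 0.00865, adjusted p 0.897). GSTM2, over 8 CpGs, read 4.17%, 4.30% and 3.45% against 5.55%, 4.87% and 6.73%, a difference of +1.74 points (SE 0.72, limma p 0.0449, adjusted p 0.928). It was +4.07 with medians over CpGs and +3.42 over the 6 CpGs whose marks do not sum above 100%. GSTM4, over 5 CpGs, went the other way, at 3.93%, 2.83% and 2.59% against 0.35%, 2.63% and 1.24% (difference -1.71, SE 0.65, limma p 0.0336, adjusted p 0.928), with overlap, and -0.35 with medians. These 3 of 8 bodies with an unadjusted p under 0.05 compare with 5.35% of 13034 gene bodies. The 2 that stood apart with DCBQ higher compare with 6.39%, and none stood apart with DCBQ lower, as 3.48% did, or 9.87% in either direction. Of the 8 differences 4 were below 0 and 4 above, against 43.6% and 56.4% of all bodies. No body passed the adjusted threshold, and over all genes 0% did.

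The remaining bodies overlapped. GSTP1 had the highest control level, at 5.80%, 7.45% and 5.05%, against 6.46%, 3.96% and 3.35% after DCBQ. It was at percentile 95 of all bodies. Bodies with 10% to 25% 5mC, its range, had a median 5hmC of 1.78% and an upper quartile of 2.78%. GSTO2 read 4.75%, 3.68% and 3.72% against 3.74%, 4.91% and 5.46%, MGST1 3.10%, 5.06% and 3.2% against 2.86%, 4.33% and 3.53%, GSTZ1 2.31%, 3.83% and 1.63% against 0.60%, 3.43% and 2.67%, and GSTM3 5.09%, 0.51% and 2.58% against 2.86%, 0.52% and 5.85%.

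The marks differed in opposite directions in 8 of 9 start windows and 6 of 8 bodies. Over all genes this was so in 61.8% of start windows and 68.7% of bodies. The marks are derived together from RRBS and oxidative RRBS and are not independent readings, and the sources used here do not say how the levels were computed. At GSTM4 the sum of the levels over the start window was 41.90%, 43.45% and 44.80% in controls and 43.76%, 45.17% and 38.76% after DCBQ, so the sum differed by -0.82 points where 5mC alone differed by -3.56. In the 300 bases around its start, DCBQ 2 and DCBQ 3 had the lowest 5mC and the highest 5hmC, at 16.98% and 14.44%, while DCBQ 1 and the controls had 5hmC between 3.64% and 8.22%. In the GSTA4 body the sum over 8 CpGs was 82.51%, 83.04% and 84.20% against 80.66%, 79.31% and 81.05%. It was lower in all DCBQ samples, with a mean difference of -2.91 points. Those 8 CpGs include the one at +8688, where 5mC differed by -40.6 points, and the sum without it was not computed. The GSTZ1 body sum, over 16 CpGs, was also lower in all, at 53.74%, 56.51% and 54.23% against 51.17%, 53.54% and 50.76%, a difference of -3.01 points. In the GSTM2 body it was 80.97%, 80.97% and 79.44% against 79.51%, 77.94% and 81.38%, with overlap. These 2 of 8 body sums that stood apart with DCBQ lower compare with 11.9% of all bodies, and none stood apart with DCBQ higher, as 2.75% did. No start window sum of the family stood apart, against 12.1% of all. Over the 300 bases around the start the GSTO2 sum was higher in all DCBQ samples, by 0.48 points, the only 1 of 7 apart, where over all genes 4.72% stood apart in that direction and 6.13% with DCBQ lower. The deposited levels do not always add up, since the sum exceeded 100% in 39 of 3150 values of the family, or 1.24%. At the GSTA4 CpG at +8688, where 5mC was lower after DCBQ, 5hmC was 0 in all 6 samples.

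**Figure D5:**
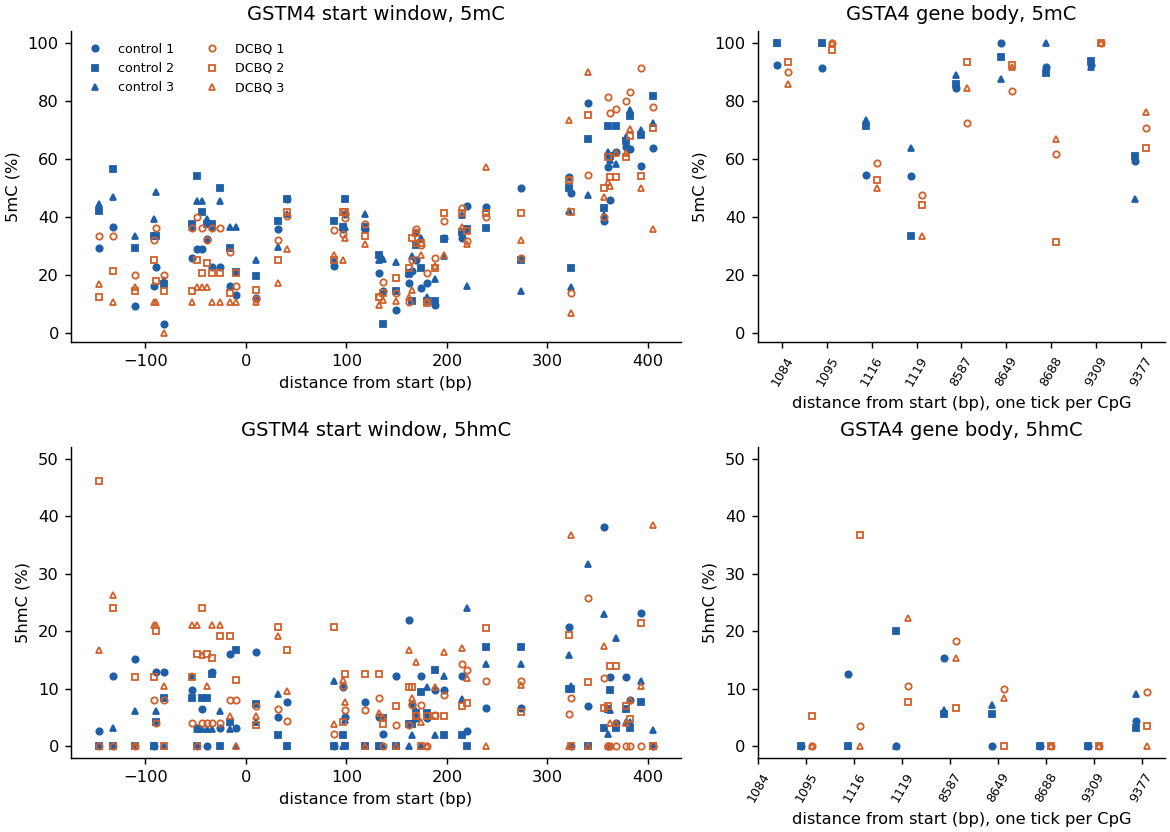
5mC (top) and 5hmC (bottom) levels (%, y axis) of single CpGs in each sample against distance from the start (bp), for the GSTM4 start window (left) and the GSTA4 body (right, a tick per CpG); filled blue points are controls and open orange points DCBQ samples. In GSTM4, over the 300 bases from 250 bp before the start, mean 5mC was 20.41% in DCBQ 2 and 12.97% in DCBQ 3. It was 30.5% in DCBQ 1, within the 23.59% to 38.09% of the controls. In GSTA4 the CpG at +8688 has 5mC between 31.2% and 66.7% after DCBQ against 89.5% to 100% in controls.

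CpG by CpG, no site passed the limma test at an adjusted p of 0.05 with a difference of at least 10 points. For 5mC, 492 of the 542 CpGs varied and were tested, and 23 of them, or 4.67%, had an unadjusted p under 0.05, against 4.69% of all 3419211 tested. Of all CpGs tested in the genome, 53.5% were lower after DCBQ and 46.5% higher. Of the 542 in the family, 251 were lower, 236 were higher and 55 showed no difference after rounding. The groups stood apart with DCBQ lower at 19 (4.66% of all) and higher at 12 (3.36%). Together these are 6.30% of the tested CpGs, against 8.02% genome-wide. For 5hmC, 444 of 525 were tested, 6 had an unadjusted p under 0.05 (1.35%, against 1.88% of all) and 6 stood apart with DCBQ lower and 13 higher (4.28% of those tested, against 6.04% of all, of which 2.9% lower and 3.14% higher). Genome-wide 0% of CpGs passed both criteria for 5mC and 1 CpG, or 3.17e-05%, for 5hmC, and that CpG was not in these genes. The shares in the family were thus near or under those of all CpGs.

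Differences of 10 points or more in 5mC were seen at 45 of the 542 CpGs, of which 13 were in the GSTO2 body and 12 in the GSTM4 start window. None was in the start windows of GSTP1, GSTO1, GSTO2, GSTZ1 or MGST1. In MGST1, whose span overlaps LMO3, the most negative was -14.8 points at +2224, with 87.5%, 88.9% and 87.5% in controls and 88.9%, 75% and 55.6% after DCBQ. The most positive was +17 points at +67005, with 33.3%, 45.5% and 72.7% against 61.5%, 78.6% and 62.5%. Both overlapped. In GSTZ1 the CpG at +763 read 54.5%, 56.5% and 58.3% against 50%, 46.3% and 34.0%, without overlap (adjusted p 0.928). For 5hmC the widest gap without overlap was at -91 in GSTM4, at 0.0% in all controls and at 8.0%, 12% and 21.1% after DCBQ (SE 6.1, limma p 0.0274, adjusted p 0.786). At +931 in GSTZ1 it was the reverse, at 10.5%, 4.0% and 15.8% in controls and 0.0% in all DCBQ samples. Several large 5hmC differences rested on 1 sample: at -360 in GSTM5 control 3 read 46.2% and the other samples between 0.0% and 6.7%.

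Runs of CpGs no more than 100 bp apart, with at least 5 CpGs, gave 21 clusters per mark, counted once where genes shared them. For 5mC 10 were lower and 11 higher after DCBQ, against 59.8% and 40.2% of all 208108 clusters, and only the 7 CpGs of MGST1 from +79033 to +79081 had groups apart. They averaged 99.11%, 100% and 100% in controls and 98.57%, 90.49% and 98.57% after DCBQ (limma p 0.134, adjusted p 0.856). That 1 cluster of 21 compares with 8.03% of all clusters that stood apart with DCBQ lower and 3.41% with DCBQ higher. For 5hmC 10 were lower and 11 higher, against 47.2% and 52.8% of all, and none stood apart, against 9.94% of all (4.4% with DCBQ lower and 5.54% with DCBQ higher). No cluster had an unadjusted limma p under 0.05, against 6.20% of all for 5mC and 4.83% for 5hmC, and no cluster in the genome passed the adjusted threshold. The smallest adjusted p was 0.813 for 5mC and 0.966 for 5hmC. The nearest 5hmC cluster to the threshold by its p was in GSTO2 from +5975 to +6204, at 1.54%, 3.35% and 0.38% in controls and 2.91%, 10.83% and 4.84% after DCBQ (limma p 0.0561).

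Averaged over the whole span with its flanks, 5mC was lower in all DCBQ samples for GSTA4, at 36.99%, 36.15% and 37.70% against 35.52%, 35.88% and 34.55%. These 42 CpGs include the one at +8688, which differed by -40.6 points. Without it the GSTA4 body differed by -1.65 points with overlap, and the span without it was not computed. 5mC was also lower in all DCBQ samples for GSTM2, whose span holds only its 8 body CpGs. In the other 8 genes the groups overlapped. Of 14659 gene spans with at least 5 CpGs, 13.6% stood apart with DCBQ lower and 2.48% with DCBQ higher. The two-sided exact permutation p was 0.1 for these 2 genes, the smallest that 3 samples against 3 allow. For 5hmC only the GSTM2 span stood apart, with DCBQ higher (exact permutation p 0.1), as did 6.47% of all spans, and 3.48% stood apart with DCBQ lower.

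Genes that make, recycle or use glutathione were counted beside the family. Of 38 such genes, 19 had a start window with 5mC: 10 were lower and 9 higher after DCBQ, 1 and 1 of them without overlap, with a median difference of -0.02 points. Over all genes 59.2% of start windows were lower, and 8.18% and 3.82% stood apart with DCBQ lower and higher. The smallest p was that of ESD, a formylglutathione hydrolase, at 0.96%, 1.75% and 0.91% in controls and 1.83%, 3.33% and 2.49% after DCBQ (difference +1.34, SE 0.43, adjusted p 0.657). GPX1, a glutathione peroxidase, followed at 5.69%, 3.18% and 4.25% against 5.38%, 5.62% and 5.21%, with overlap. In bodies 16 were lower and 3 higher, 1 and 2 without overlap, with a median of -0.76 points. Over all bodies 69.4% were lower, with a median of -0.39, and 13.4% and 2.24% stood apart with DCBQ lower and higher. The 2 listed bodies with the smallest p were higher after DCBQ. GCLM, the modifier subunit of the enzyme that limits glutathione synthesis, read 28.12%, 31.04% and 27.98% against 31.10%, 31.90% and 33.30% (difference +3.05, SE 1.01, adjusted p 0.587). The GPX1 body read 7.18%, 9.04% and 8.76% against 10.06%, 15.28% and 10.88% (difference +3.74, SE 1.43, adjusted p 0.594). For 5hmC, 18 starts split into 11 lower and 7 higher and 19 bodies into 8 lower and 11 higher, all with overlap. The smallest p were those of SLC3A2, a subunit of the cystine transporter (-0.41 points, adjusted p 0.952), and GCLM (-0.28, adjusted p 0.952) at starts, and of GCLM (-2.29, adjusted p 0.932) and GPX6 (+2.34, adjusted p 0.941) in bodies.

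Of 27 other genes of the transferase superfamily, 10 had a start window with 5mC, 6 lower and 4 higher after DCBQ, all with overlap. CLIC3, a chloride intracellular channel protein of the same fold, had the smallest p there (-1.38 points, adjusted p 0.865), and MGST3 the next (+0.61, adjusted p 0.892). Of 16 bodies 11 were lower and 5 higher, with 1 apart, against 69.4% lower and 13.4% apart with DCBQ lower over all bodies. GSTA1, an alpha-class neighbour of GSTA4, read 66.00%, 57.06% and 56.40% in controls and 51.21%, 52.19% and 53.39% after DCBQ, without overlap (difference -7.56, SE 2.61, limma p 0.0277, adjusted p 0.587). GSTK1 was next (+1.75, adjusted p 0.670), with overlap. For 5hmC, 10 starts split into 6 lower and 4 higher, all with overlap, and 16 bodies into 8 lower and 8 higher. Only the CLIC5 body stood apart, with DCBQ higher, as did 6.39% of all bodies. It read 2.95%, 3.34% and 3.2% against 3.86%, 3.53% and 3.88%. The 5hmC of the GSTA1 body was 3.33%, 1.33% and 0.83% against 8.89%, 3.16% and 4.75% (difference +3.76, SE 1.47, limma p 0.0375, adjusted p 0.928), with overlap. EEF1G, a translation factor with a transferase-like domain, followed (-1.85, adjusted p 0.953). At starts GSTCD (-0.68, adjusted p 0.952) and CLIC5 (+0.69, adjusted p 0.971) had the smallest p for 5hmC. No gene of either list passed the adjusted threshold with limma, for either mark.

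Likeness of 5mC patterns was measured as the Euclidean distance over 12 values, 6 samples at the start and 6 in the body, among 23 genes of these lists with both units. MGST1 was nearest to ABCC4, an exporter that carries glutathione conjugates, at 6.7 points, and GSTO2 to PTGES, a microsomal glutathione-dependent enzyme, at 7.4. GSTP1 was nearest to GPX1 at 14.2, GSTZ1 to PTGES at 16.5 and GSTA4 to CLIC4 at 24.9. GSTM3 (nearest GLRX2, at 31.0) and GSTM4 (nearest GSTK1, at 45.6) had no close neighbour. Distances mostly follow the levels themselves and say nothing of shared control.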

How the data were processed

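Per the labels, SV-HUC-1 DNA was profiled in 12 libraries in 4 groups of 3, RRBS and oxidative RRBS for each condition. The authors deposited a fraction per CpG for each mark, with a minimum of 5 reads and strands merged per the file names. Any negative fraction was raised to the lower end of the scale, and the levels are printed here as percent. BSMAP 2.90, Trim Galore and cutadapt are named, per the submitters' processing notes. The sources used here do not state how 5mC and 5hmC were derived. Columns name a condition and a number, and which library each came from is not stated.

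Means over units with at least 5 CpGs were compared by limma (version 3.58.1, R 4.3.3; lmFit, eBayes with a variance trend) on the level itself, with Benjamini-Hochberg adjustment over all units of the kind in the genome. Start windows used the first start listed in RefSeq GRCh38.p14, which covered 15842 protein-coding genes. Only CpGs that varied were tested singly. Span means had a two-sided exact permutation test (20 relabellings). Exons, introns and untranslated regions were not analysed here.

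All 10 genes were named with all units. In start windows CpGs with the smallest p were named, and in the span those with the smallest p per direction at 10 points or more, with the clusters of smallest p. Of the other lists the 2 smallest p per mark and unit were named. CpG differences named as the most negative or positive, and those at neighbouring CpGs, were chosen after their values were seen. The genes and lists were chosen with earlier results of these data known.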

Additional observations from a re-analysis of the deposited data

How the results depend on the processing

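In no alternative fitted did a unit or CpG of the 10 genes pass the adjusted threshold: the smallest adjusted p in any setting was 0.702 for starts, 0.419 for bodies, 0.738 for clusters and 0.511 for CpGs in 5mC, and 0.838, 0.749, 0.884 and 0.778 in 5hmC. The 3 samples per group and an unknown depth limit what could be detected. Genome-wide 5hmC calls changed: single CpGs went from 1 to 2 on a log2 ratio scale, to 0 without a variance trend, to 0 with the replicate block and to 0 without any replicate in turn (0 to 0). The 5hmC start windows went from 0 to 1 on the log2 ratio scale and from 0 to 1 when replicates were left out in turn, the 1 being without control 1. Samples sharing a number did not deviate together (correlations from -0.054 to 0.01), and those with different numbers gave -0.04 to 0.048. These correlations, from 3 samples per group, cannot show whether the numbers pair samples, and the labels do not say. The replicate block called 0 units of every kind for both marks. Medians over CpGs were fitted only for units that varied between samples.

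Some differences changed sign, and the cause was not tested. With the window at 1500 bp each side, the 5mC start difference was 0.21 in GSTP1, 0.11 in GSTO2 and -0.71 in GSTZ1. With 500 bp each side the GSTA4 5hmC start was -0.26. With CpGs in both tables the GSTP1 5mC start was 0.01 and the GSTO2 5mC body 0.11. With medians the GSTP1 5mC start was 0.42, the GSTO2 5mC body 1.60 and the GSTM4 5mC body -0.73. Without CpGs in another gene the MGST1 5hmC body was 0.24.

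Leaving out each replicate gave 5mC start differences of -0.99 to 0.17 in GSTA4, -5.26 to 4.72 in GSTM3, -0.40 to 0.00 in GSTO2, -0.39 to 0.20 in GSTP1, -0.06 to 0.24 in GSTZ1 and -0.33 to 0.21 in MGST1. For 5mC bodies it gave -0.96 to 0.78 in GSTO2, -0.46 to 3.53 in GSTP1 and -0.80 to 0.97 in MGST1. For 5hmC starts it gave -3.22 to 0.77 in GSTM5, -0.22 to 0.08 in GSTP1, -0.25 to 0.04 in GSTZ1 and -0.59 to 0.46 in MGST1. For 5hmC bodies it gave -1.04 to 1.63 in GSTM3, -0.95 to 0.46 in GSTZ1 and -0.59 to 0.42 in MGST1. The GSTA4 body stayed between -6.73 and -5.01 for 5mC and between 2.38 and 3.25 for 5hmC, and the GSTM2 body between -2.98 and -2.19 and between 1.24 and 2.17. Medians moved several differences by over 1.5 times without a change of sign. The GSTM2 body went to -4.42 for 5mC and 4.07 for 5hmC, the latter also to 3.42 without CpGs whose marks sum above 100%. The GSTM4 start went to -6.68 for 5mC and the GSTM5 start to 12.33, and the GSTM4 5hmC body to -0.35. Leaving replicates out of span means, and the GSTA4 body without its CpG at +8688, were chosen after seeing the data.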
